A study of Mus musculus with 48 samples.

Results

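The angiotensin system is represented here by 4 genes that work in sequence, the precursor gene Agt, the converting enzyme gene Ace and the receptor genes Agtr1a and Agtr2. They were chosen by symbol, with no threshold on a measured value. Each was taken from the deposited array values as the probe set annotated to that symbol alone, and each symbol had 1 such probe set. They are 4 of the 22180 genes with a probe set of their own. Of these genes, 15337 were tested, because at least 1 group mean reached the median of all such probe sets (4.94 on the log2 scale), and all 4 members were among them.

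The series measured mouse aorta in 3 knockout models of elastic fibre assembly. The Eln knockout lacks elastin, the Efemp2 knockout lacks fibulin-4, and the Lox knockout lacks lysyl oxidase, which cross-links elastin and collagen. Each knockout (KO) was set against wild type (WT) of its own model at 2 locations, the ascending (AA) and the descending (DA) aorta, and at 2 stages, day 17.5 of gestation (E17.5) and the first day after birth (P1). The 24 groups held 2 arrays each, and each array carried RNA pooled from 8 aortas. The Eln and Efemp2 mice were C57BL/6 and the Lox mice were B6 albino, in KO and WT alike. The labels give a genotype of KO or WT and no Cre driver, and they do not say whether the animals of a pool shared a litter, so p-values measure the spread between pools. Whole vessel was measured, so fewer cells of a type and less RNA per cell cannot be told apart.

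Angiotensinogen, the product of Agt, is cut by renin to angiotensin I, and angiotensin-converting enzyme, the product of Ace, trims that peptide to angiotensin II and also breaks down bradykinin. Angiotensin II acts in the vessel wall through the type 1 receptor, in mice mainly the one encoded by Agtr1a, which drives contraction and growth, and through the type 2 receptor encoded by Agtr2, which is abundant in fetal tissue and often opposes the type 1 receptor. Ace is known from the luminal surface of the endothelium and is also made by smooth muscle cells.

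In these aortas Ace was higher in Eln KO than in WT by 0.76 ± 0.10 on the log2 scale (limma standard error, mean of 4 pairs of location and stage, adjusted p = 3.95e-06), and passed in both locations at P1. Agt, Agtr1a and Agtr2 passed the test in none of the 12 pairs and in none of the 3 model means. Between locations, Agtr2 and Agt were higher in WT DA than in WT AA, and Ace was lower, with the call for Agt lost under several alternatives.

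Ace, Agt and Agtr2 are shown with the 250 bases before a RefSeq transcription start, as the sequence nearest to their transcription that was at hand. No such window was at hand for Agtr1a. Ace lies on chromosome 11 (GRCm38.p6, 105967948 to 105989964), Agt on chromosome 8 (124556587 to 124569706), Agtr1a on chromosome 13 (30336356 to 30382867) and Agtr2 on chromosome X (21484624 to 21488833). Capitals mark TATAA, the core of a TATA box, and GGGCGG, a GC box, on either strand. Each sequence is written 5′ to 3′ in the direction of the gene and is credited to RefSeq.
Ace, chr11:105967698-105967947, plus strand: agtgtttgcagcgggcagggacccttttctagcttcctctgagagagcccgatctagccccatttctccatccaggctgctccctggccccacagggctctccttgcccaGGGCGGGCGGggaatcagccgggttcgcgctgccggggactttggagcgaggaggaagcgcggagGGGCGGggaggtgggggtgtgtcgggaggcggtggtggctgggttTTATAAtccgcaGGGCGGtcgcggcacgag
Agt, chr8:124569707-124569956, minus strand: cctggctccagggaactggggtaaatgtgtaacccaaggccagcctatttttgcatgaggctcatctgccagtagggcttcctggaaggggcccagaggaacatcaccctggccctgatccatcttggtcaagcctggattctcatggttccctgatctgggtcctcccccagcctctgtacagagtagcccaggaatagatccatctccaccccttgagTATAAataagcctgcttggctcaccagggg
Agtr2, chrX:21484374-21484623, plus strand: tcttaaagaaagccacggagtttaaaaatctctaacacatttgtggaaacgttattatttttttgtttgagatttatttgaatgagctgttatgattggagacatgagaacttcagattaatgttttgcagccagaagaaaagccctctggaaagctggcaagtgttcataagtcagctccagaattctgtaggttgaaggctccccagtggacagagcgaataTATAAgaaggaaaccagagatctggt

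The Ace window held TATAA on both strands, overlapping, with the plus-strand match 29 to 25 bases before the start, and 4 matches of GGGCGG, of which 2 overlapped. The Agt window held TATAA from 30 to 26 bases before the start and the Agtr2 window from 26 to 22, and neither held GGGCGG. Of 32851 RefSeq windows of the same length, 22.8% held TATAA and 32.7% held GGGCGG. An AP-1 site, TGANTCA, and the CArG box of smooth muscle genes were also searched on both strands, with no match in these 3 windows, against 6.75% and 1.47% of all windows. A match is a run of letters and not a shown binding site. The window of a second Ace start inside the gene (chr11:105974939-105975188) held none of the 4 motifs, and 1 probe set cannot separate transcripts of the 2 starts.

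How arrays were grouped for normalisation is not given in the sources used here. Arrays of 1 model at E17.5, and the Eln and Efemp2 arrays together at P1, often shared exact values among their 20 lowest, while 1 of 896 array pairs between such sets did. The Lox P1 arrays shared none with each other and were kept as a set of their own. Levels were compared within these 5 sets only, and no level was set against another stage. The pooled replicates correlated with a median r of 0.980. The deletions could be checked for Eln, at 4.23 to 5.56 in its KO against 9.20 to 11.91 in WT, and for Lox, at 6.26 to 8.71 against 9.55 to 11.48, while Efemp2 had no probe set of its own. The lowest WT value of Eln, 9.20, was that of Eln WT DA P1 replicate 1, while the other Eln WT arrays lay at 10.95 to 11.91. Both Eln WT DA P1 arrays, Efemp2 WT AA P1 replicate 2 and Efemp2 WT DA P1 replicate 2 had a raised background, with a median of 4.35 to 4.37 over probe sets without a gene name, against at most 4.14 on the other P1 arrays of the set.

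Background was read on each array as the 95th percentile of 1394 olfactory and vomeronasal receptor genes, which serve as genes that aorta is not known to use. Ace stood above it on all 48 arrays, by 2.33 to 6.08 log2 units. Agtr2 also stood above it on all 48 arrays, by 1.96 to 5.07. Agt was close to it, with a median of 0.75 above and 1 of 48 arrays below, Lox WT AA E17.5 replicate 2 at 3.62. Agtr1a had a median of 1.28 above and 2 of 48 arrays below, Efemp2 WT AA P1 replicate 2 at 5.31 and Efemp2 KO AA P1 replicate 1 at 5.09. A change of Agt or Agtr1a is thus read from signals of which background is a larger part, where the fold is understated. Agtr1b, the second mouse type 1 receptor gene, was at or below background on 40 of 48 arrays.

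**Figure D1:**
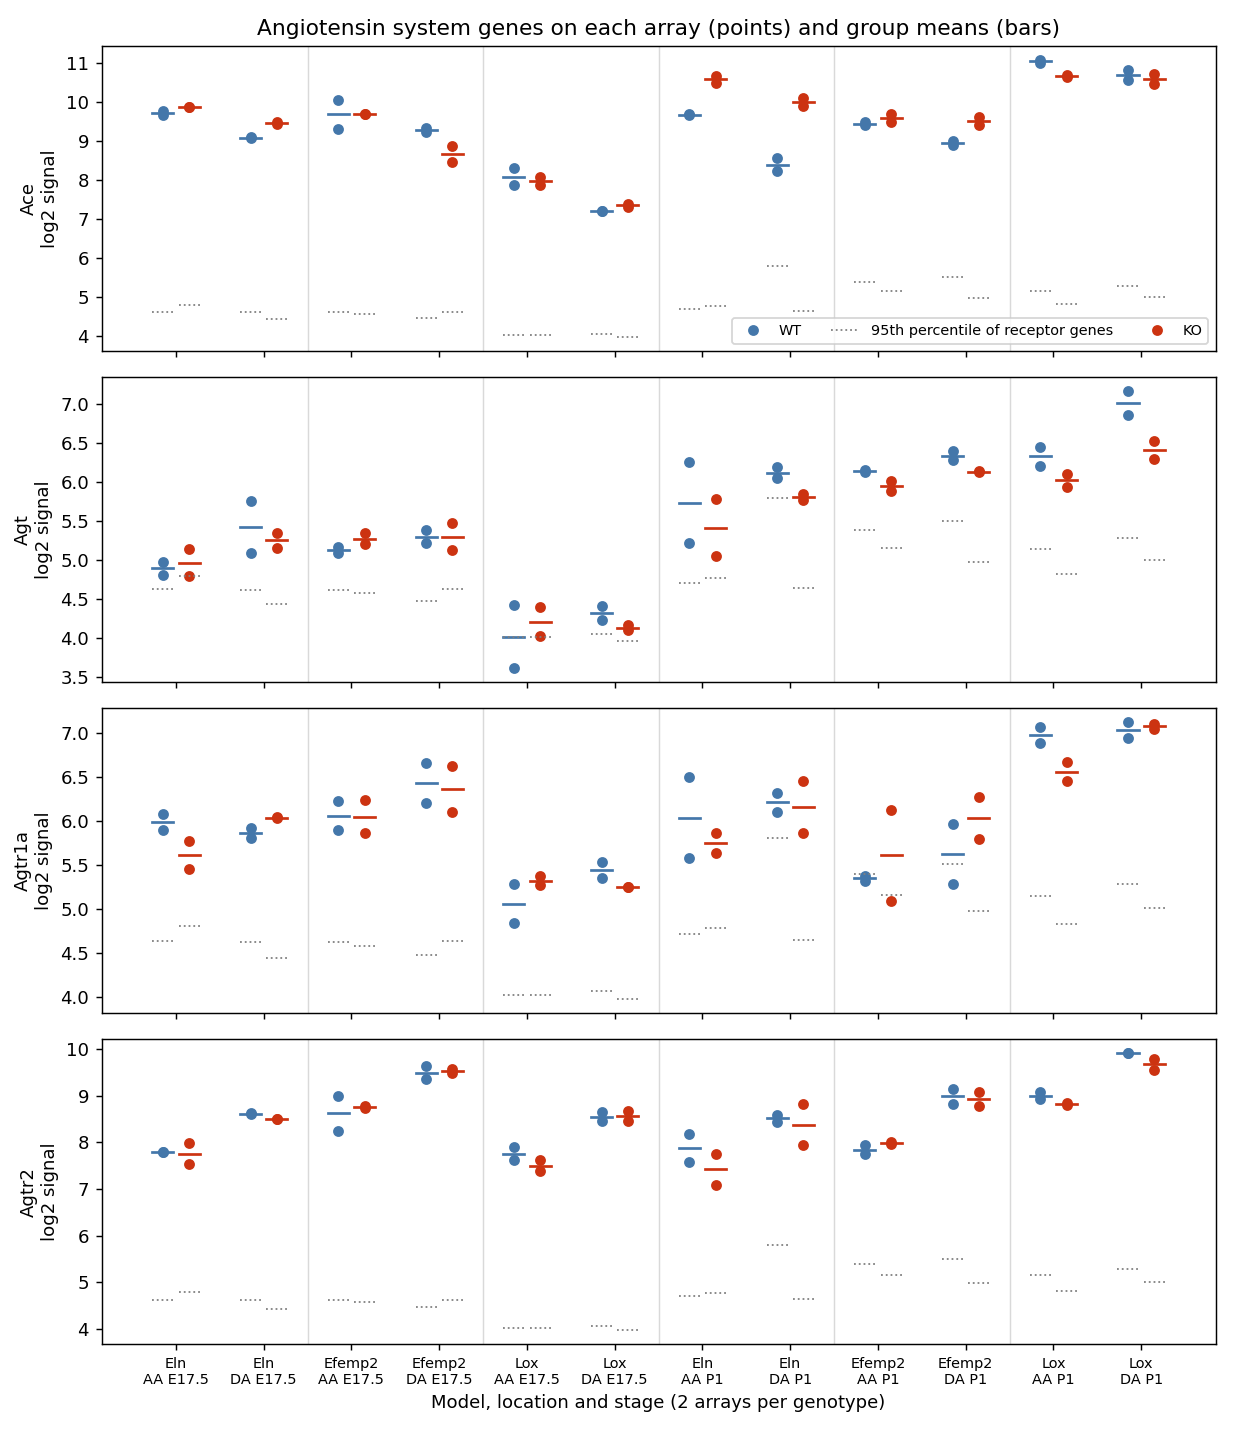
Each panel plots 1 member on the log2 signal scale, with a point per array, a bar per group mean, WT in blue and KO in red, and a dotted line at the 95th percentile of receptor genes (mean of the group's arrays). The 4 Eln KO arrays of Ace at P1 lie at 9.90 to 10.68, above the 8 WT arrays of that set, while Agt runs close to the dotted line.

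Agt, the gene of the only known angiotensin precursor, did not pass the test in any KO. In the Eln P1 arrays its log2 signal was 5.22 and 6.25 in WT AA against 5.78 and 5.06 in KO AA, and 6.05 and 6.19 in WT DA against 5.85 and 5.77 in KO DA. The AA arrays overlapped, and both KO DA arrays lay below both WT DA arrays. In Efemp2 P1 it was 6.13 and 6.16 in WT AA against 5.89 and 6.01 in KO AA, and 6.28 and 6.39 in WT DA against 6.14 and 6.12 in KO DA. In Lox P1 it was 6.21 and 6.45 in WT AA against 6.10 and 5.94 in KO AA, and 6.85 and 7.17 in WT DA against 6.30 and 6.52 in KO DA. KO lay below WT without overlap in each of these 4 Efemp2 and Lox pairs. The median difference of all tested genes was itself -0.20 in Lox AA P1 and -0.17 in Lox DA P1. It was 0.08 in Efemp2 AA P1 and 0.10 in Efemp2 DA P1. Groups of so few arrays can lie apart by chance, and how often all tested genes did so was not tested. Whether arrays overlapped is therefore given here and elsewhere as a description only.

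The KO mean of Agt was thus below the WT mean in all 6 P1 pairs, by differences of -0.60 to -0.19, and after subtraction of the median of all tested genes by -0.58 to -0.11. None passed limma's test, with adjusted p of 0.411 to 0.785 over the P1 pairs. Lox DA P1, with an adjusted p of 0.547 by limma, was the 1 pair of 12 with an unadjusted p under 0.05. The Eln AA P1 difference of -0.32 turned to 0.20 without Eln WT AA P1 replicate 2 and to 0.04 without Eln KO AA P1 replicate 2. At E17.5 the 6 differences ran from -0.19 to 0.20, and on the Lox E17.5 arrays the 8 values of Agt lay between 3.62 and 4.42. The model means were -0.18 ± 0.13 in Eln (95% interval -0.45 to 0.09, adjusted p = 0.559), -0.06 in Efemp2 (-0.33 to 0.21, adjusted p = 0.875) and -0.22 in Lox (-0.50 to 0.05, adjusted p = 0.447). Set against Efemp2 WT in place of Eln WT, Agt in Eln KO at P1 was -0.73 in AA (adjusted p = 0.0956) and -0.52 in DA (adjusted p = 0.209). At P1 the mean level of brown fat markers was 5.71 to 5.99 in Eln KO AA against 6.23 to 7.95 in WT. It was 5.43 to 5.48 against 5.71 to 6.16 in Efemp2 AA, and 5.91 to 6.02 against 6.67 to 7.43 in Efemp2 DA. In Lox it was 5.84 to 5.96 against 6.59 to 7.15 in AA, and 6.79 to 7.10 against 7.70 to 8.06 in DA. In Eln DA the levels overlapped. The part of these markers in the differences of Agt was not tested.

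Ace, the converting enzyme gene, rose in the Eln KO after birth. At P1 its log2 signal was 9.70 and 9.67 in WT AA against 10.49 and 10.68 in KO AA. It was 8.24 and 8.56 in WT DA against 9.90 and 10.12 in KO DA. In both locations each KO array lay above each WT array, and the 4 KO arrays (9.90 to 10.68) also lay above the 8 WT arrays of both models normalised with them (8.24 to 9.70). The difference was 0.90 ± 0.19 in AA (adjusted p = 0.0106), or 0.89 and 1.85-fold less the median of all genes, and 1.61 ± 0.19 in DA (adjusted p = 2.75e-06), or 1.34 and 2.53-fold less that median. Of the 4 members, Ace alone was called in each of these pairs, where 1.81% of all tested genes were called in AA and 25.5% in DA.

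The DA value carries a doubt about its WT arrays that the AA value does not. Both Eln WT DA P1 arrays were among the 4 with raised background, the median of all tested genes itself stood 0.27 above WT there, and both Ace values were the lowest of their set. By limma the DA difference fell to 1.42 with the array background as a covariate (adjusted p = 0.00879). Under cyclic loess it fell to 1.16 (adjusted p = 2.31e-04), and it kept its call in both. The difference was 1.45 without WT DA P1 replicate 1, the array with the low Eln value (adjusted p = 3.92e-04). Set against the Efemp2 WT of the same location, strain and set, a control chosen after the data were seen and of which 1 of 2 arrays in each location also had raised background, Ace in Eln KO was higher by 1.14 in AA (adjusted p = 8.68e-04) and by 1.06 in DA (adjusted p = 0.00133), where 6.4% and 8.83% of genes were called and Ace was the only member. The AA call was lost without Eln WT AA P1 replicate 2 (0.89, adjusted p = 0.0678) and without Eln KO AA P1 replicate 2 (0.81, adjusted p = 0.0908).

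At E17.5 Ace was also higher in Eln KO, by less, and did not pass. Its signal was 9.68 and 9.79 in WT AA against 9.89 and 9.89 in KO AA, and 9.10 and 9.08 in WT DA against 9.45 and 9.48 in KO DA. The KO arrays lay above the WT arrays in both locations, by 0.15 ± 0.19 in AA and 0.37 ± 0.19 in DA on average (adjusted p = 1 for both). Few genes were called in these pairs, 0.124% in AA and 0.0456% in DA. The KO effect at P1 exceeded that at E17.5 by 0.99 ± 0.19 (adjusted p = 0.0166), or 0.86 less the median of all genes, where 0.567% of genes were called and Ace was the only member. Without the 4 high-background arrays that difference was 0.64 and lost its call. Eln DA P1 then has no WT array, so the P1 side held AA only, against both locations at E17.5. The full difference was lost with the array background as a covariate (0.86, adjusted p = 0.332) and under cyclic loess (0.72, adjusted p = 0.125). It was also lost when any 1 of 4 single arrays was left out, Eln WT AA E17.5 replicate 2, Eln KO AA E17.5 replicate 1, Eln KO DA E17.5 replicate 2 or Eln KO AA P1 replicate 2 (adjusted p 0.0551 to 0.0620). The DA effect exceeded the AA effect by 0.46, which did not pass (adjusted p = 0.130), or by 0.28 less the median shift. No member was called in that comparison, which called 5.24% of genes, and Ace alone had an unadjusted p under 0.05.

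Ace had no such rise in the Efemp2 KO. At E17.5 it was 9.31 and 10.07 in WT AA against 9.70 and 9.70 in KO AA, and 9.35 and 9.24 in WT DA against 8.48 and 8.88 in KO DA. At P1 it was 9.42 and 9.48 in WT AA against 9.69 and 9.48 in KO AA, and 8.99 and 8.91 in WT DA against 9.61 and 9.42 in KO DA. The DA arrays did not overlap at either stage, with KO below WT at E17.5 and above it at P1, while in AA the groups lay at like levels. The DA differences were -0.62 ± 0.19 at E17.5 (adjusted p = 0.483) and 0.56 ± 0.19 at P1 (adjusted p = 0.141), and the AA differences 0.00 and 0.14. The AA value at E17.5 was -0.38 without Efemp2 WT AA E17.5 replicate 1, an array with a low Eln signal (9.69, against 11.70 in its replicate). No member was called in the 4 pairs, where 0.613% (AA E17.5), 3.7% (AA P1), 0.0391% (DA E17.5) and 1.55% (DA P1) of genes were, while Ace had an unadjusted limma p under 0.05 in both DA pairs. The mean of the 4 pairs was 0.02 ± 0.10 (95% interval -0.18 to 0.22, adjusted p = 0.948). The effect at P1 less that at E17.5 was 0.66 ± 0.19 (adjusted p = 0.0807), in a comparison that called 1.33% of genes and no member, 1 of 4 with an unadjusted p under 0.05. It passed without Efemp2 WT AA E17.5 replicate 1 (0.85, adjusted p = 0.0183) and without Efemp2 WT DA P1 replicate 1 (0.68, adjusted p = 0.0496).

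In the Lox KO the values of Ace stayed near those of WT. At E17.5 it was 8.31 and 7.88 in WT AA against 7.88 and 8.07 in KO AA, and 7.22 and 7.22 in WT DA against 7.39 and 7.32 in KO DA. At P1 it was 11.09 and 11.02 in WT AA against 10.65 and 10.71 in KO AA, and 10.84 and 10.57 in WT DA against 10.73 and 10.46 in KO DA. The KO arrays lay above WT in DA at E17.5 and below it in AA at P1, and overlapped in the other pairs. The lowest difference was that of AA at P1, -0.38 ± 0.19 (adjusted p = 0.503), or -0.18 less the median of all genes. No member was called in the 4 pairs, where 0.0261% (AA E17.5), 0.606% (AA P1), 0.013% (DA E17.5) and 0.261% (DA P1) of genes were, and Agt in DA P1 was the only one with an unadjusted limma p under 0.05. The mean of the 4 pairs was -0.12 ± 0.10 (95% interval -0.31 to 0.08, adjusted p = 0.607).

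The differences between the models were tested directly. The KO effect on Ace was lower in Efemp2 than in Eln by 0.74 ± 0.14 (adjusted p = 0.00584), in a comparison that called 0.554% of genes. It was lower in Lox than in Eln by 0.88 ± 0.14 (adjusted p = 9.63e-04), or 0.74 less the median shift, with 0.509% of genes called. Ace was the only member called in either. Lox less Efemp2 was -0.14 ± 0.14 (adjusted p = 0.762), with 0.0261% of genes and no member called. In the model means, Ace was the 1 of 4 members called in Eln, where 3.29% of genes were called, and no member was called in Efemp2 or in Lox, where 3.81% and 1.56% were, by limma and also at an unadjusted p under 0.05. Averaged over all 12 pairs Ace was higher in KO by 0.22 ± 0.06 (adjusted p = 0.00841), with 10.2% of genes called and Ace the only member, while the Efemp2 and Lox means alone were 0.02 and -0.12. That mean lost its call under cyclic loess (0.14, adjusted p = 0.105), with the array background as a covariate (0.17, adjusted p = 0.227) and without the 4 high-background arrays (0.09, adjusted p = 0.374).

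The Eln mean of Ace passed under each of the 25 other settings and left-out arrays tried, at 0.48 to 0.80. Its lowest value, 0.48 (adjusted p = 0.0186), came without the 4 high-background arrays, which leaves 3 pairs, as Eln DA P1 then has no WT array. In that fit the Efemp2 effect less the Eln effect was -0.46 (adjusted p = 0.242) and the Lox effect less the Eln effect -0.59 (adjusted p = 0.0984), so that both differences between models lost their call.

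**Figure D2:**
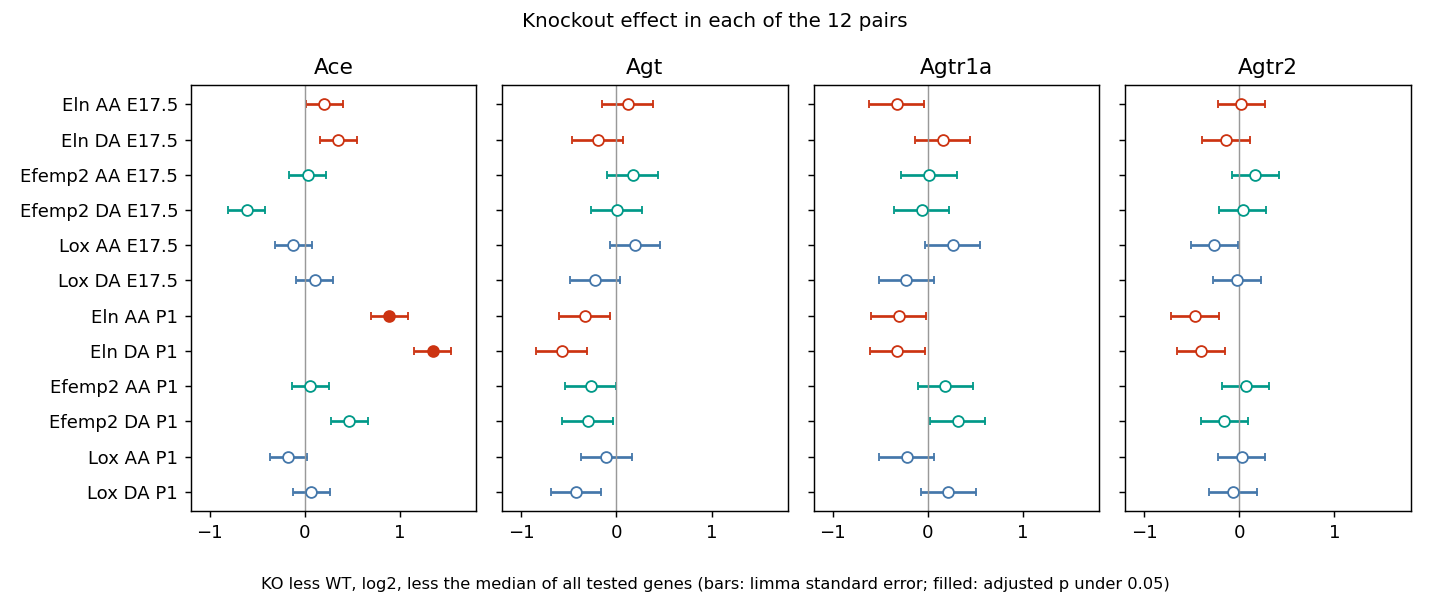
Each panel plots 1 member, with the difference KO less WT in each of the 12 pairs on the log2 scale with that of all tested genes' median subtracted, its limma standard error as a bar, and a filled point where the adjusted p was under 0.05. The 2 filled points are Ace in Eln AA P1 (0.89) and Eln DA P1 (1.34), and the points of Agt, Agtr1a and Agtr2 are open.

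The order of the Ace levels at P1 could be read over the 8 groups of the Eln and Efemp2 set. Eln KO AA was highest with a mean of 10.59, then Eln KO DA at 10.01, Eln WT AA at 9.68, Efemp2 KO AA at 9.59, Efemp2 KO DA at 9.52, Efemp2 WT AA at 9.45, Efemp2 WT DA at 8.95 and Eln WT DA at 8.40. The 4 groups from Eln WT AA to Efemp2 WT AA each overlapped their neighbour in that order, and the other neighbours did not overlap. In Eln E17.5 the order was KO AA (9.89), WT AA (9.73), KO DA (9.46) and WT DA (9.09), with no overlap between neighbours. In Lox P1, WT AA (11.06) stood above the other 3 groups, which overlapped each other at 10.60 to 10.71.

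Agtr1a, the gene of the main type 1 receptor, passed in none of the 12 pairs, and none had an unadjusted p under 0.05. In the Eln P1 arrays it was 5.58 and 6.49 in WT AA against 5.64 and 5.86 in KO AA, and 6.32 and 6.10 in WT DA against 6.45 and 5.86 in KO DA, overlapping in both locations. In Efemp2 P1 it was 5.38 and 5.31 in WT AA against 5.09 and 6.12 in KO AA, and 5.28 and 5.96 in WT DA against 5.79 and 6.27 in KO DA, again overlapping. In Lox P1 it was 7.06 and 6.88 in WT AA against 6.44 and 6.66 in KO AA, where KO lay below, and 6.94 and 7.12 in WT DA against 7.10 and 7.04 in KO DA. At E17.5 its groups ran from 5.05 to 6.42 in mean, with differences of -0.38 to 0.26.

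The 12 differences of Agtr1a ran from -0.42 to 0.41. Its model means were -0.13 ± 0.14 in Eln (95% interval -0.43 to 0.16), 0.15 in Efemp2 (-0.15 to 0.44) and -0.08 in Lox (-0.37 to 0.22), with adjusted p of 0.727, 0.674 and 0.844. Set against Efemp2 WT in place of Eln WT, the Eln P1 differences turned from -0.29 to 0.40 in AA and from -0.05 to 0.54 in DA, and neither passed. The direction of Agtr1a in the Eln KO at P1 therefore depends on which WT arrays serve as control.

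Agtr2, the gene of the type 2 receptor, was well above background and also passed in none of the 12 pairs, with no unadjusted p under 0.05. In Eln P1 it was 7.57 and 8.17 in WT AA against 7.09 and 7.75 in KO AA, and 8.59 and 8.43 in WT DA against 7.94 and 8.82 in KO DA. In Efemp2 P1 it was 7.93 and 7.75 in WT AA against 7.96 and 8.01 in KO AA, and 9.15 and 8.82 in WT DA against 9.08 and 8.78 in KO DA. In Lox P1 it was 8.92 and 9.07 in WT AA against 8.80 and 8.84 in KO AA, and 9.91 and 9.90 in WT DA against 9.78 and 9.55 in KO DA. Both Lox pairs had KO below WT without overlap, Efemp2 AA had KO above, and the other 3 overlapped.

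The largest Agtr2 difference was that of Eln AA P1, -0.45 ± 0.25 (adjusted p = 0.447). In Eln DA P1 the difference of -0.13, or -0.40 less the median of all genes, became -0.65 under cyclic loess and then passed (adjusted p = 0.0407). It turned to 0.31 without Eln KO DA P1 replicate 1. Set against Efemp2 WT in place of Eln WT, Agtr2 in Eln KO at P1 was -0.42 in AA (adjusted p = 0.32). In DA it was -0.61, with an unadjusted limma p of 0.0212 and an adjusted p of 0.12, so neither passed. The model means were -0.18 in Eln (95% interval -0.43 to 0.08, adjusted p = 0.534), 0.07 in Efemp2 (-0.19 to 0.32, adjusted p = 0.854) and -0.16 in Lox (-0.42 to 0.09, adjusted p = 0.569). The upper bound of the Eln interval, 0.08, lies below the gain of Ace, 0.76 (95% interval 0.56 to 0.96). The difference between Agtr2 and Ace was not itself tested.

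The members of the system were not set apart alike between the locations of normal aorta. Over the 6 WT pairs of DA and AA, Agtr2 was higher in DA by 0.87 ± 0.10 (adjusted p = 3.63e-07), or 1.82-fold, with differences of 0.64 to 1.14. In Eln E17.5 WT it was 7.78 and 7.78 in AA against 8.61 and 8.62 in DA, and in Efemp2 E17.5 WT 8.24 and 8.99 against 9.63 and 9.36. The DA arrays lay above the AA arrays in all 6 WT pairs, and in all 6 KO pairs, where the differences were 0.74 to 1.06. The direction was thus the same in WT and KO arrays of each model.

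Ace ran the other way, lower in WT DA by 0.67 ± 0.08 (adjusted p = 3.41e-07), with a lower DA mean in 6 of 6 pairs and no overlap in 5 of 6. The differences ran from -1.28 in Eln P1, where both WT DA arrays had raised background, to -0.35 in Lox P1, and the mean was -0.54 without the 4 high-background arrays (adjusted p = 3.21e-04). In KO the DA mean of Ace was also lower in 6 of 6 pairs, by 0.07 to 1.02, and 4 did not overlap. Agt was higher in WT DA by 0.38 ± 0.11 (adjusted p = 0.0245), in 6 of 6 pairs by mean and 4 of 6 without overlap. That call was lost without the 4 high-background arrays (0.37, adjusted p = 0.102) and without any 1 of 6 single WT arrays (0.29 to 0.36, adjusted p 0.0520 to 0.0714). Agtr1a was higher in DA in 5 of 6 pairs by 0.19 ± 0.12 on average, which did not pass (adjusted p = 0.366). So 3 of 4 members were called between the WT locations, 2 higher and 1 lower in DA, where 8.59% of all tested genes were called, 4.64% higher and 3.96% lower. Markers of other cells moved with location too: 6 of 6 tested neuron and chromaffin markers were higher in WT DA (median 1.14 less the median of all genes), 3 of 12 endothelial, 3 of 10 macrophage and 2 of 7 brown fat markers were higher, and their part in the differences of the members was not tested.

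Other peptidases that make or break angiotensins, 19 listed and 15 of them tested, held calls both between WT locations and in KO. The renin genes Ren1 and Ren2 were among those not analysed here. In WT, 5 of 15 were higher in DA and none lower, among them the mast cell proteases Mcpt4 (1.46), Cpa3 (1.28) and Cma1 (0.93), and also Enpep, glutamyl aminopeptidase (0.43), and Prcp (0.38), which were named after their values were seen. Of all tested genes, 4.64% were higher in WT DA and 3.96% lower. The median of the 15 peptidases was 0.15 above that of all tested genes. In the model means, 0 of 15 were called in Eln, where 4 had an unadjusted p under 0.05, 2 of 15 rose in Efemp2, cathepsin D (Ctsd, 0.52, adjusted p = 0.00298) and neurolysin (Nln, 0.59, adjusted p = 0.00495), and 0 of 15 were called in Lox, where 2 had an unadjusted p under 0.05. The shares called in either direction among all tested genes were 3.29%, 3.81% and 1.56% in Eln, Efemp2 and Lox. Of the 15337 tested genes, 482 rose in Efemp2. In the mean of all 12 pairs 2 of 15 rose and 4 fell. There 10.2% of all tested genes were called, with 958 of 15337 higher and 600 lower. In the Eln DA P1 pair 4 of 15 rose, where 25.5% of all tested genes were called in either direction and 3030 of 15337 rose. Their medians in the 3 models less the median of all genes were 0.02, 0.09 and 0.00 in Eln, Efemp2 and Lox.

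Of 16 measured receptor partners, 14 were tested, while Mas1, the receptor of angiotensin 1-7, and Mrgprd fell below the filter. In Eln KO 2 of 14 rose, Rgs5, a brake on G protein signalling that is also a pericyte marker (0.51, adjusted p = 0.00549), and Zbtb16, whose protein binds the type 2 receptor (0.54, adjusted p = 0.00779). In Efemp2 KO 1 of 14 rose, Arrb2, a beta-arrestin (0.48, adjusted p = 0.00482). In Lox KO 1 of 14 fell, Zbtb16 (-0.64, adjusted p = 0.00336). Agtrap and Atp6ap2, which bind the type 1 receptor and prorenin, passed in no model mean and were named after their values were seen. The shares called in either direction among all tested genes were 3.29%, 3.81% and 1.56% in Eln, Efemp2 and Lox. Of the 15337 tested genes, 421 rose in Eln and 482 in Efemp2, and 154 fell in Lox. The medians of the list less that of all genes were 0.10, 0.15 and 0.06.

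Neighbouring systems gave no call by limma in the mean of any of the 3 models. Of 4 aldosterone genes 3 were tested. Sgk1, a mineralocorticoid target, stood at 0.41 in Eln (adjusted p = 0.117), 0.43 in Efemp2 (adjusted p = 0.0894) and -0.10 in Lox. It was called in Eln DA P1 (1.34, adjusted p = 0.00135, or 1.07 less the median of all genes) and in the mean of all 12 pairs (0.25, adjusted p = 0.0491). Nr3c2, the mineralocorticoid receptor, stood at 0.08, -0.12 and -0.14, and Hsd11b2, which inactivates glucocorticoids, at -0.05, -0.12 and -0.08. Of 6 kinin genes 2 were tested, Bdkrb2, a bradykinin receptor (-0.14, 0.17 and -0.35), and Klk1, a kallikrein (-0.59, -0.47 and -0.39). At an unadjusted p under 0.05, these lists held 1 aldosterone gene in Eln and 1 in Efemp2, and 1 kinin gene in Lox.

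Genes known to respond to angiotensin II were called in each model, in differing numbers. Of 18 tested, 2 rose in Eln KO, Thbs1 (0.96, adjusted p = 4.51e-04) and Ccn2 (1.11, adjusted p = 2.27e-06), and none fell. In Efemp2 KO 8 of 18 rose and in Lox KO 9 of 18 rose, and none fell in either. The shares called in either direction among all tested genes were 3.29%, 3.81% and 1.56% in Eln, Efemp2 and Lox. Of the 15337 tested genes, 421 rose in Eln, 482 in Efemp2 and 86 in Lox. In Efemp2 KO these included Thbs1 (2.06), the prostaglandin synthase gene Ptgs2 (1.72) and the chemokine gene Ccl2 (1.66), and in Lox KO Ptgs2 (1.55), Thbs1 (1.41), Ccl2 (1.25) and the early growth response gene Egr1 (1.20). Macrophage markers, 7 of 10 higher in Efemp2 KO (median 0.62), 1 of 10 in Lox KO (0.48) and 0 of 10 in Eln KO (-0.05; 1 at an unadjusted limma p under 0.05), moved beside this list, and their part in it was not tested. The medians less that of all genes were 0.21, 0.58 and 0.64 in Eln, Efemp2 and Lox. The rises of Ccn2, Thbs1 and Ptgs2 were known when the list was written, and many other signals also raise these genes. By count the list had the fewest calls in Eln KO, where Ace rose, and the difference between models was not tested for the list.

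**Figure D3:**
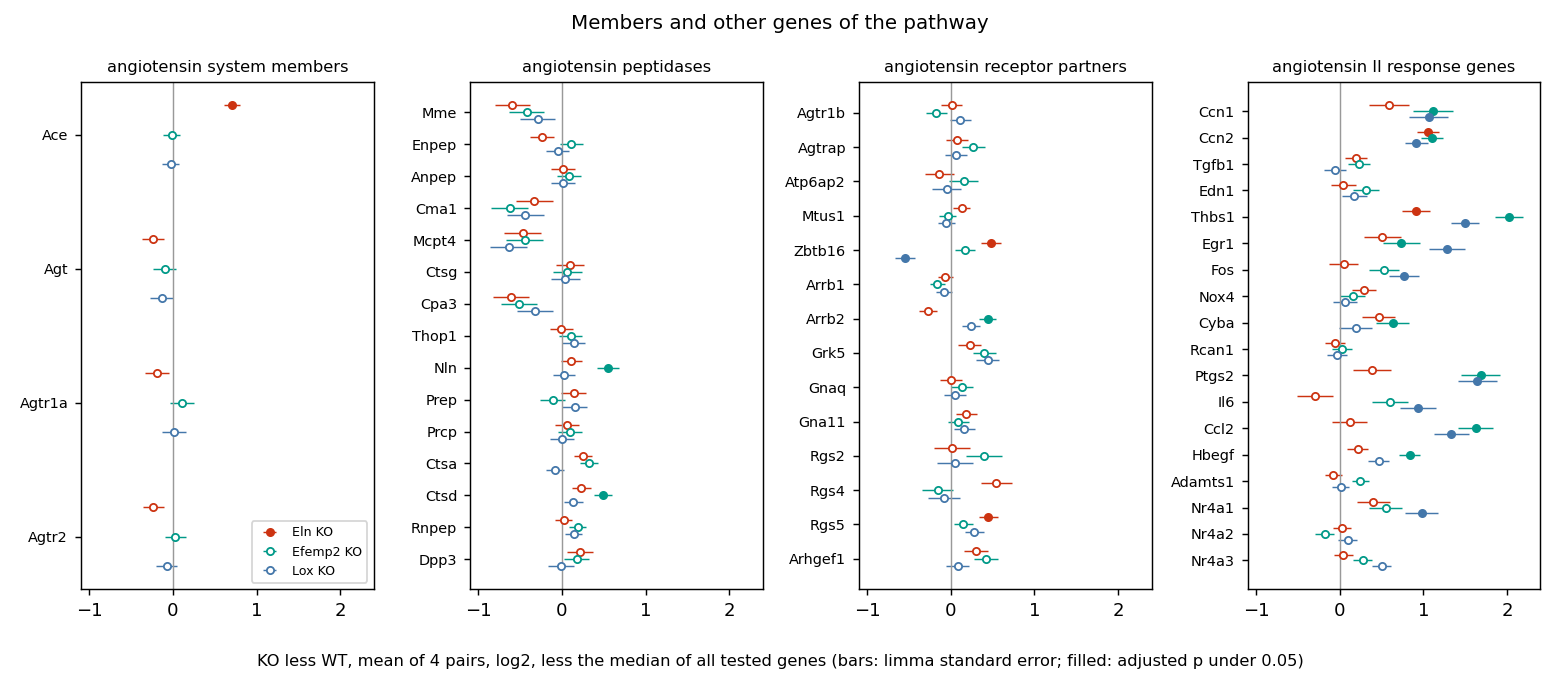
The panels plot KO less WT as the mean of 4 pairs per model, on the log2 scale less the median of all tested genes, for the members, the tested angiotensin peptidases, the receptor partners and the angiotensin II response genes, with limma standard errors and filled points where the adjusted p was under 0.05. Among the members only Ace in Eln KO is filled, while the response genes hold 2 filled points in Eln, 8 in Efemp2 and 9 in Lox.

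Markers of the cell types that an aorta sample can hold moved with Ace in part. In Eln AA P1, where Ace rose by 0.89 less the median of all genes, the 12 endothelial markers had a median of -0.45 and 0 rose while 2 fell, Emcn (-2.34) and Egfl7 (-0.94). In Eln DA P1, where Ace rose by 1.34, their median was 0.61 and 8 of 12 rose, among them Cldn5 (1.39) and Tie1 (1.14), named after their values were seen. In that pair 25.5% of all tested genes were called in either direction, and 3030 of 15337 rose. The mean level of the endothelial list was 7.65 to 7.78 in WT AA and 7.15 to 7.22 in KO AA, and 6.88 to 6.92 in WT DA and 7.45 to 7.99 in KO DA. Ace therefore rose in AA while the median of the endothelial markers stood lower, and in DA while it stood higher. The part of these markers in the rise of Ace was not tested in either location.

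The 5 pericyte markers had medians of 0.59 in Eln AA P1, with 0 called and 3 at an unadjusted p under 0.05, and 0.73 in DA P1, with 3 called higher. The 9 smooth muscle markers had medians of 0.51 in AA, with 2 called higher, and 0.11 in DA, also with 2 called higher. The shares called in either direction among all tested genes were 1.81% in AA and 25.5% in DA. Of the 15337 tested genes, 176 were called higher in AA and 3030 in DA. Their mean level was 8.81 to 9.03 in WT AA and 9.46 to 9.52 in KO AA, and 8.24 to 8.87 in WT DA and 8.95 to 9.05 in KO DA, while the pericyte list stood at 8.19 to 8.22 and 8.50 to 8.94 in AA and at 7.55 to 8.02 and 8.71 to 8.84 in DA. The mean levels of both lists did not overlap between Eln KO and WT in either location, with KO above. These levels are given without subtraction of the median of all tested genes, which stood 0.27 higher in KO in DA P1. The smooth muscle gap in DA, from 8.87 in WT to 8.95 in KO, is smaller than that shift. The difference was not tested for the lists, and the part of both lists in the result for Ace was not tested. Macrophage markers were at -0.77 in AA and 0.28 in DA, fibroblast markers at -0.57 and -0.18, and brown fat markers at -1.73 and -0.56. The mean level of the heart muscle list was 7.52 to 7.58 in WT AA and 7.21 to 7.26 in KO AA. In DA it was 7.57 to 8.82 in WT and 7.28 to 7.61 in KO. The neuron and chromaffin list stood at 4.87 to 5.13 in WT AA and 5.18 to 5.27 in KO AA. Its DA levels were 5.04 to 5.39 in WT and 5.37 to 7.40 in KO. The part of these lists in the result for Ace was not tested. No endothelial, smooth muscle or pericyte marker was near background on more than 1 of 48 arrays, while Ucp1, the defining gene of brown fat, was at or below background on 33 of 48 arrays and the macrophage gene Cd14 on 25.

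**Figure D4:**
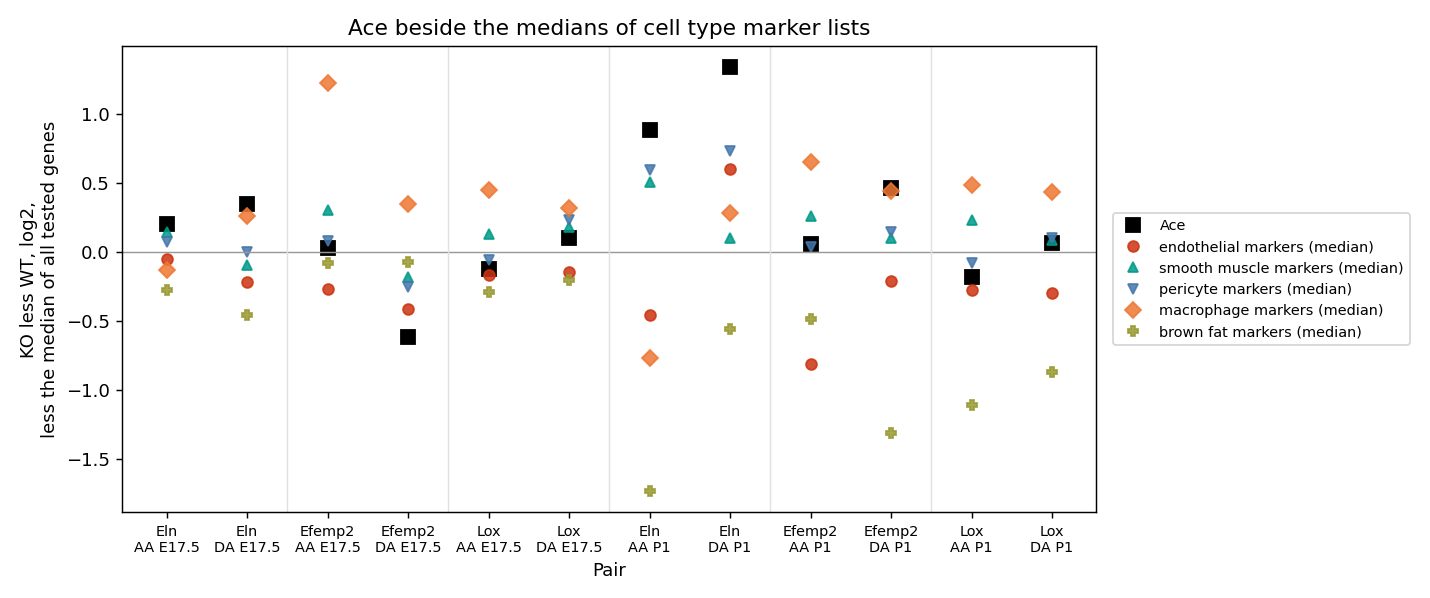
For each of the 12 pairs the plot sets KO less WT of Ace (black squares) beside the medians of 5 marker lists, on the log2 scale, after the median of all genes tested was subtracted. In Eln AA P1 Ace stands at 0.89 with the endothelial median at -0.45, and in Eln DA P1 at 1.34 with the endothelial median at 0.61.

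Likeness over the 12 pair differences was taken as Pearson's r, less the median of all genes, over the 10416 to 10417 genes searched for each member, those that differed by at least 0.5 in some pair. The pairs share arrays' normalisation and depth of signal, so r is given as a description. Closest to Ace were Sulf2, which trims heparan sulphate (r = 0.978), Tenm3, a teneurin (0.971), Nid2, the basement membrane nidogen (0.937), Thra, a thyroid hormone receptor (0.937), and Map1b (0.930). Sulf2 stood at 0.70 in Eln AA P1 and 1.00 in Eln DA P1 and at -0.50 to 0.52 in the other 10 pairs, and Tenm3 at 1.17 and 1.94 against -0.25 to 0.76. Closest to Agt were Chrna7 (0.916), Lpxn (0.884), Rab3c (0.882), Lsmem1 (0.878) and Kcna1 (0.876). Closest to Agtr1a were Hnrnpll (0.819), Abca9 (0.805), Cnrip1 (0.793), Prkcsh (0.793) and Ap1b1 (0.788), and closest to Agtr2 were 1700030M09Rik (0.886), Nrros (0.866), Tnfrsf1b (0.865), Lyrm9 (0.862) and Arhgap15 (0.851).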

How the data were processed

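RNA of pooled aortas was hybridised to 48 arrays. The deposited values are log2 signals per probe set computed by the authors using RMA (Affymetrix Expression Console), per the submitters' processing notes. Versions, settings and the build used are not given in the sources used here. Per the labels' protocols, 5 ng of RNA was the input to a whole-transcriptome amplification (NuGEN Ovation Pico WTA) before biotin labelling.

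Of 41345 probe sets, 23521 carried 1 gene symbol, 1814 several and 16010 none, and 23328 matched RefSeq by gene ID, with 0 symbols changed. The probe set of highest mean was kept per symbol. Genes with at least 1 group mean at or above 4.94 were tested. A mean per group was fitted with limma 3.58.1 in R 4.3.3 (24 residual degrees of freedom, moderated variances), and p-values were adjusted by Benjamini-Hochberg over the 15337 tested genes, with a threshold of 0.05. The methods were tested on simulated data. Shifts of the median of all tested genes over 0.1 were subtracted where said. The adjusted p-values belong to the differences before that subtraction. Named genes are the members, up to 4 called genes per pathway list and model by size (all of a list of at most 6), and the 5 genes closest to each member; others are marked as named after their values were seen. The members and lists were chosen with earlier results of these data known. The alternatives tried are given at the end. The number of arrays limits the precision.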

Additional observations from a re-analysis of the deposited data

Results flagged for a closer look

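3 differences of the Ace response between groups passed their own test. The KO effect on Ace in Efemp2 less that in Eln was -0.74 on the log2 scale. The KO effect in Lox less that in Eln was -0.88. Within the Eln model, the effect at P1 less that at E17.5 was 0.99. All 3 rest on the Eln P1 arrays, and each lost its call without the 4 high-background arrays (-0.46, -0.59 and 0.64), which include both Eln WT DA P1 arrays. The Eln effect at P1 is then read from AA only, so these values are not like for like with the full differences. No group held enough arrays for a test of single outlying arrays, as each had 2.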

How the results depend on the processing

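The alternatives were no filter, cyclic loess, trend and robust variances, a replicate block, the mean of a symbol's probe sets, the arrays of the model only, leaving out each array, a covariate for array background, and a fit that drops the 4 high-background arrays. Centred arrays and Efemp2 WT as control were chosen after seeing the data. A sign change of an uncalled value by less than its standard error was not counted as a turn; 32 such changes came from other settings and 83 from left-out arrays, of 2491 values. Replicate numbers did not pair the samples (same-number r of -0.33 to 0.19, above 0.1 in 4 of 12 pairs); with the replicate block Ace in Eln stayed at 0.76 (adjusted p = 1.89e-04), and the Agt difference between WT locations was 0.38 and lost its call (adjusted p = 0.0684).

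Genes called numbered 504 in Eln, 584 in Efemp2 and 240 in Lox. The background covariate gave 218 in Eln and 373 in Efemp2, the fit without the 4 arrays 248 in Eln and 443 in Lox, and the arrays of the model alone 196 in Efemp2 and 767 in Lox. Left-out arrays gave 331 to 872, 366 to 860 and 127 to 301. The Ace mean of all 12 pairs lost its call with the covariate (0.17), cyclic loess (0.14) and without the 4 arrays (0.09). The Ace difference between stages in Eln was 0.72 under cyclic loess and 0.86 with the covariate. It was 0.64 without the 4 arrays, where its P1 side is AA only, and 0.91 to 1.08 over left-out arrays. Over left-out arrays that in Efemp2 was 0.47 to 0.85. Between models the Ace difference was -0.46 and -0.59 without the 4 arrays. Ace in Eln AA P1 was 0.81 to 1.00 over left-out arrays. Agt between WT locations was 0.37 without the 4 arrays and 0.29 to 0.46 over left-out arrays.

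Turned values were all uncalled. Under cyclic loess they were Ace in Efemp2 AA P1 (-0.17) and its mean (-0.11), Agtr2 in Efemp2 AA P1 (-0.18) and its mean (-0.0675), Ace in Lox less Efemp2 (0.0016) and Agtr2 in Eln DA less AA (-0.22). With the covariate they were Agtr2 in the Efemp2 mean (-0.12) and in Eln DA less AA (-0.17), and without the 4 arrays Ace in Eln DA less AA (-0.16). In that last fit Eln DA P1 has no WT array, so DA at E17.5 alone is set against AA at both stages. Its sign therefore mixes stage with location and is not a turn of the same difference. With Efemp2 WT as control Agtr1a was 0.40 in Eln AA P1 and 0.54 in DA P1. Agtr2 in Eln DA P1 gained a call under cyclic loess (-0.65). Left-out arrays turned Agt in Eln AA P1 (-0.84 to 0.20), Eln DA E17.5 (-0.51 to 0.16) and Lox AA E17.5 (-0.21 to 0.60), Agtr1a in Eln AA P1 (-0.74 to 0.17), Eln DA P1 (-0.35 to 0.24) and Efemp2 AA P1 (-0.26 to 0.78), Agtr2 in Eln DA P1 (-0.57 to 0.31) and Efemp2 AA E17.5 (-0.23 to 0.52), and Ace in Efemp2 AA E17.5 (-0.38 to 0.38) and Lox AA E17.5 (-0.34 to 0.10). The causes were not tested. Agt and Agtr1a stood closer to background than Ace and Agtr2, with medians of 0.75 and 1.28 above it, which limits what can be seen of them.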
